A study of Mus musculus with 12 samples.

Results

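AP-1 is a family of dimeric transcription factors, and the genes described here are its FOS members (Fos, Fosb, Fosl1 and Fosl2) and JUN members (Jun, Junb and Jund), with Egr1, Ier3 and Maff, which like several of them are immediate early genes. They were taken by name, as the entries of the deposited expression table that bear these symbols. The rule uses no measured value, but the names were listed with earlier results of these data known. All 10 were found among the 21853 genes of the table, and 9 of them, all but Fosb, were among the 10597 genes that passed the filter on low values (1 RPKM or more in at least 3 libraries) and were tested.
The samples were 12 RNA-seq libraries of CommaDβ cells, a normal mouse mammary epithelial line in which cells with much and with little surface Sca-1 coexist and can be sorted apart. Scahigh cells (3 libraries) were the Sca-1 positive sort, which behaves as mammary progenitors of basal type, and Scalow cells (3 libraries) the negative sort, described as luminal and more differentiated. ScahighNT cells (3 libraries) were Sca-1 positive cells that carried a lentiviral vector with a doxycycline switch in front of miR-34a and were left without the drug, and Scahigh34a cells (3 libraries) were the same infected cells given doxycycline for 24 h. All 4 groups thus come from a single cultured line. The uninfected groups carry no vector, so ScahighNT differs from Scahigh cells by infection and by whatever handling went with it, and as no vector-free cells that had received doxycycline were analysed, the drug and the miRNA cannot be told apart.

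FOS proteins bind DNA only as partners of a JUN protein or a related leucine zipper factor, whereas JUN proteins can also pair with each other, and the dimers bind the AP-1 site and the related cyclic AMP response element. Many genes of this kind are switched on within minutes of a growth factor, stress or attachment signal, because ERK, JNK and p38 kinases act on factors that already sit on their promoters, such as SRF with its TCF partners. Their RNAs and proteins are short-lived, so the level in unstimulated cells is usually a balance of steady signalling and fast decay. In mammary epithelium, AP-1 is known for its part in growth factor responses, in matrix protease expression and in the mesenchymal traits of basal-like tumours.

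The deposited values are RPKM, read counts set relative to gene length and library depth, so that levels can be compared between genes as well as between libraries. Here they were rescaled between libraries, and every level below is a scaled RPKM. Whole reads could be recovered from the steps of the values for 19961 genes and came to 27121224 to 32957767 per library. The rarest member, Fosb, was read 30 to 127 times in a library, Fosl1 202 to 405 times and Ier3 3539 to 45159 times, so that counting error is sizeable for Fosb only. Library 3 (Scahigh) and library 12 (Scahigh34a) stood apart from the others of their groups, with a chi-square per gene of 49.23 to 93.61 in the 4 pairs that hold either of them and 7.02 to 22.34 in the other 8 pairs, and values without both are given where they matter. The labels' genotype tag has the induced and uninduced cells the other way round from the titles, which were followed. The Mir34a gene was at 87.8, 74.9 and 128.5 RPKM in the Scahigh34a libraries and at most 0.928 RPKM in any other, which runs with the titles. Ly6a, the gene of Sca-1, was at 9.92 to 13.4 RPKM in Scahigh and 0.995 to 1.88 RPKM in Scalow libraries. The sources do not say whether the 3 libraries of each group stem from different cultures, and p-values therefore cover a spread between libraries that may be technical only. These are bulk samples, in which fewer cells of a type and less RNA per cell cannot be told apart.

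The induced miRNA pairs with its targets through bases 2 to 8, and its mature sequence is shown with this seed in capitals, beside the matching sites in members. The miRNA lies at chr4:150068473-150068494 on the plus strand of GRCm38.p6 and comes from RefSeq.
miR-34a-5p: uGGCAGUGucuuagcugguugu
The longest 3′ UTR of each of the 10 members, taken from the GENCODE vM21 annotation of GRCm38, was searched for the 7-base matches CACTGCC and ACTGCCA. Fos held 1 site, at base 40 of 815 (chr12:85476498-85476504, plus strand), and Fosb held 1 site, at base 2125 of 2302 (chr7:19302873-19302879, minus strand). They are shown with the matching bases in capitals.
Fos: tccagacgtgcCACTGCCcgagctggtgca
Fosb: gaagggcctgcCACTGCCgaccacaattca
The other 8 members held none, while 23.4% of the 10209 tested genes with an annotated 3′ UTR held at least 1 site. With the shortest annotated 3′ UTR of each gene, 1 member held a site, as the short form of Fosb (207 bases) ends before it, against 13.9% of the tested genes.

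AP-1 genes are themselves read by AP-1 and related factors, and Jun is the textbook case of a gene that its own product activates. Promoters were taken from RefSeq on GRCm38.p6 as 300 bases, 250 before and 50 after the start of the transcript. No promoter of Egr1 or Fosl1 was searched. The other 8 members had 10 windows, of which 3 belong to Maff. They were searched on both strands for the AP-1 site TGANTCA, the cyclic AMP response element TGACGTCA, the variants TGACATCA and TTACCTCA described in the JUN promoter, and the CArG box of SRF, and none of these motifs lies within another. The Jun window (chr4:95052173-95052472, minus strand) held TTACCTCA 164 bases and TGACATCA 45 bases before the start, the pair through which JUN and ATF2 are known to act. A Maff window (chr15:79347270-79347569, plus strand) held TGACGTCA 29 bases before the start, and another (chr15:79348152-79348451, plus strand) held TGACATCA 45 bases before it. They are shown with the matches in capitals, together with the Ier3 window (chr17:35821463-35821762, plus strand), which is given because Ier3 showed the largest difference of all members below, and which held none of the motifs.
Jun: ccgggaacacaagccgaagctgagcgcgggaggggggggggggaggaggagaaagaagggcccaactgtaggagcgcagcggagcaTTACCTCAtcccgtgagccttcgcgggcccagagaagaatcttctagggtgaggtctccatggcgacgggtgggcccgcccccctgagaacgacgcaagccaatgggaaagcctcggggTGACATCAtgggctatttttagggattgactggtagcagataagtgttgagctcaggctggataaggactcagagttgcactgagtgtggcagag
Maff, middle window: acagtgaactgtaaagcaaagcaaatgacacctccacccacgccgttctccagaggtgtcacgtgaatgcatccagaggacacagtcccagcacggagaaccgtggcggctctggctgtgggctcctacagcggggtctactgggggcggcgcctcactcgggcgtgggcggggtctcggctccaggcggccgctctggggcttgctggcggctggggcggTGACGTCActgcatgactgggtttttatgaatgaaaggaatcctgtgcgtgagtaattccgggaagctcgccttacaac
Maff, downstream window: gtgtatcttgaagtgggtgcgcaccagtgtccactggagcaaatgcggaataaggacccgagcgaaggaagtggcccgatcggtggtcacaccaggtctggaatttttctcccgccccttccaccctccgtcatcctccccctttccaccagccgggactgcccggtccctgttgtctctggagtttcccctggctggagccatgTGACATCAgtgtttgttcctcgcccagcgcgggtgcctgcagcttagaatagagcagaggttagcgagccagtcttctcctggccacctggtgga
Ier3: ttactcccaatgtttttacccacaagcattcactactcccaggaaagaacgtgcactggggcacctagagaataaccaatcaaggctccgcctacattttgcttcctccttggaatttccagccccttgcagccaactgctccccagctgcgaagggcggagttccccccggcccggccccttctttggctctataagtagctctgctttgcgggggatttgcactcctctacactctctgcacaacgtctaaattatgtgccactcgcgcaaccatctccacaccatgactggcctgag
The most upstream Maff window and those of Fos, Fosb, Fosl2, Junb and Jund held no match to these letters. Bases more than 250 before the start were not searched, so motifs further upstream would be missed. Over all 32851 windows of the table, TGANTCA was found in 7.81%, TGACATCA in 3.62%, TGACGTCA in 1.79%, the CArG box in 1.63% and TTACCTCA in 0.889%. A match is a description of the letters and not a measured site.

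Among the FOS genes, Fosl2 was the most abundant in every library, and it was lowest after miR-34a. Fosl2 (FRA2), a FOS protein without the strong activation domain of FOS, was at 15.2, 13.0 and 8.92 RPKM in Scahigh, 12.7, 14.7 and 12.8 in Scalow, 15.6, 17.4 and 14.4 in ScahighNT and 5.43, 4.66 and 7.89 RPKM in Scahigh34a libraries. The 3 induced libraries lay below the 9 others, and the first 3 groups overlapped with each other. The low Scahigh value (8.92) was library 3 and the high Scahigh34a value (7.89) was library 12. Fosl1 (FRA1), the FOS protein most often tied to mesenchymal breast cancer cells, was much rarer, at 2.73, 2.09 and 1.87 RPKM in Scahigh, 2.66, 2.45 and 2.98 in Scalow, 3.00, 2.79 and 2.58 in ScahighNT and 1.84, 1.43 and 2.01 in Scahigh34a libraries. Its Scahigh34a libraries lay below those of ScahighNT but overlapped with Scahigh.
Fos itself, the founding partner of JUN, was low in every group. It was at 3.14, 3.04 and 3.33 RPKM in Scahigh, 3.34, 3.23 and 3.33 in Scalow, 4.69, 3.6 and 4.16 in ScahighNT and 4.63, 4.34 and 4.11 in Scahigh34a libraries. All 6 libraries of vector-carrying cells lay above all 6 of uninfected cells, and the induced and uninduced libraries overlapped. Fosb, a close relative of Fos, was rare, at 0.335, 0.223 and 0.174 RPKM in Scahigh, 0.424, 0.417 and 0.395 in Scalow, 0.121, 0.0940 and 0.118 in ScahighNT and 0.220, 0.218 and 0.229 in Scahigh34a libraries. The Scalow libraries were highest and the ScahighNT libraries lowest, with no overlap between these and the rest. Fosb did not pass the filter.

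**Figure D1:**
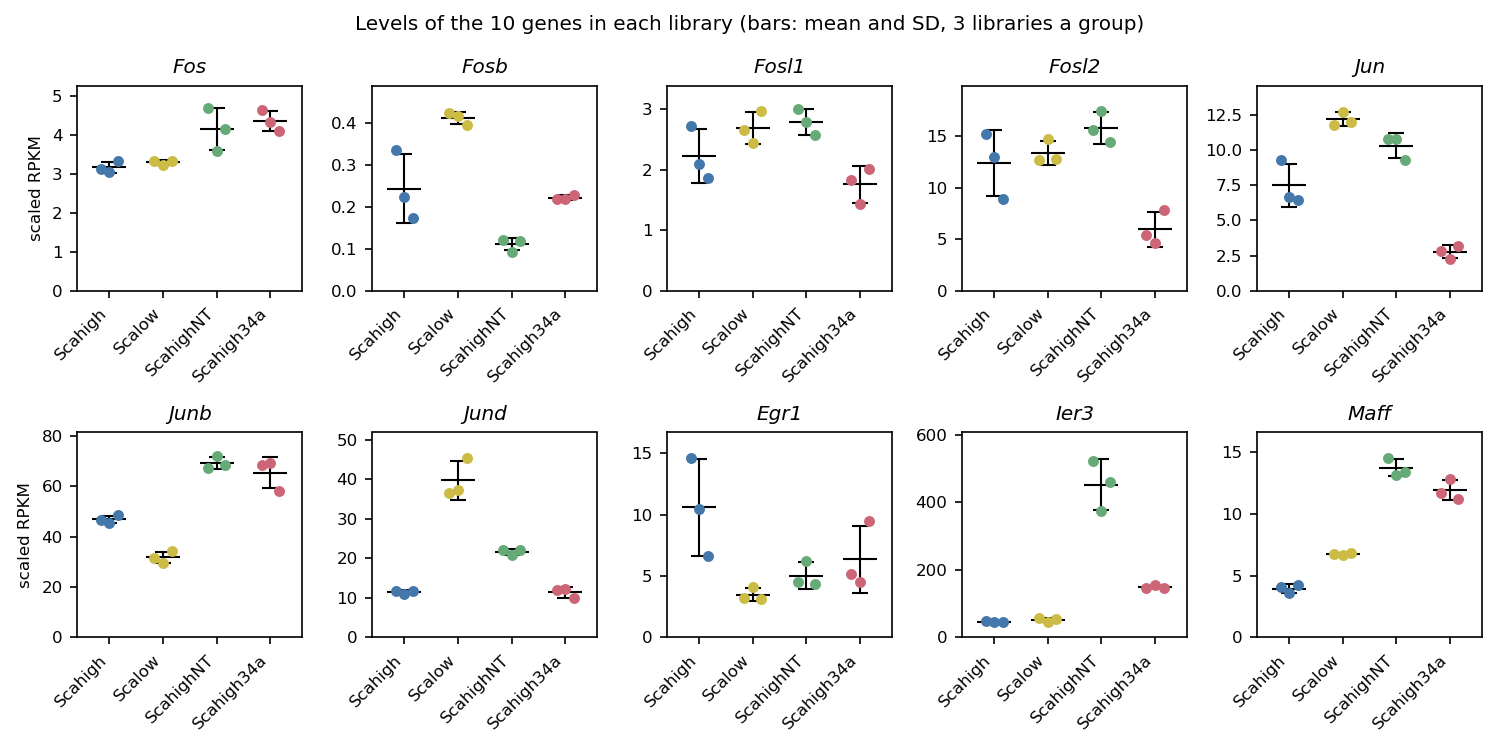
Scaled RPKM (linear axes from 0, a panel for each gene) of the 10 genes in the 12 libraries, coloured by group, with the mean and SD of 3 libraries. Jun and Fosl2 are lowest in Scahigh34a cells, Ier3 is highest in ScahighNT cells (374.0 to 523.7 RPKM) and Jund is highest in Scalow cells (36.5 to 45.3 RPKM).

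Junb and Jund were more abundant than any FOS gene in most libraries, and each JUN gene had an order of groups of its own. Jun, the strongest activator of the family, was at 9.27, 6.70 and 6.48 RPKM in Scahigh, 11.8, 12.7 and 12 in Scalow, 10.8, 10.8 and 9.26 in ScahighNT and 2.83, 2.30 and 3.22 in Scahigh34a libraries. The Scahigh34a libraries lay below every other library, Scalow lay above every other, and Scahigh and ScahighNT just met (9.27 against 9.26). Jund, a JUN protein that is usually present without stimulation and is known to slow the growth of fibroblasts, was at 11.7, 10.9 and 11.8 RPKM in Scahigh, 36.5, 37.3 and 45.3 in Scalow, 22.0, 20.8 and 22.1 in ScahighNT and 12.1, 12.3 and 9.86 in Scahigh34a libraries. Scalow was highest and ScahighNT next, without overlap, and the Scahigh and Scahigh34a libraries overlapped.
Junb, which activates less strongly than Jun and can oppose it, was the most abundant JUN gene in all groups but Scalow. It was at 46.7, 45.5 and 48.4 RPKM in Scahigh, 31.7, 29.7 and 34.2 in Scalow, 67.2, 71.8 and 68.3 in ScahighNT and 68.5, 69.1 and 58.1 in Scahigh34a libraries. Scalow lay below Scahigh, and both lay below the vector-carrying groups, which overlapped with each other.

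Of the remaining members, Ier3 and Maff were highest in vector-carrying cells and Egr1 was highest in uninfected Scahigh cells. Ier3 (IEX1), a stress-induced regulator of cell survival and a known target of NF-κB, was at 49.1, 44.7 and 47.1 RPKM in Scahigh, 57.9, 46.5 and 53.6 in Scalow, 523.7, 374.0 and 458.8 in ScahighNT and 147.8, 153.9 and 146.4 in Scahigh34a libraries. No library of ScahighNT or Scahigh34a overlapped with another group, while Scahigh and Scalow did with each other. Maff, a small MAF factor that has no activation domain and pairs with factors such as NRF2, was at 4.05, 3.59 and 4.22 RPKM in Scahigh, 6.74, 6.64 and 6.84 in Scalow, 14.5, 13.1 and 13.4 in ScahighNT and 11.7, 12.8 and 11.2 in Scahigh34a libraries. No 2 groups overlapped for Maff, although ScahighNT and Scahigh34a came close (13.1 against 12.8).
Egr1, a zinc finger factor that is the standard readout of ERK signalling through SRF, was at 14.6, 10.5 and 6.66 RPKM in Scahigh, 3.24, 4.09 and 3.11 in Scalow, 4.52, 6.27 and 4.32 in ScahighNT and 5.14, 4.51 and 9.53 in Scahigh34a libraries. Scahigh lay above Scalow and ScahighNT. Egr1 had the largest SE of the tested members (0.30 on the log2 scale), and here too the lowest Scahigh value (6.66) was library 3 and the highest Scahigh34a value (9.53) was library 12.

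Sorted Scahigh and Scalow cells were compared to ask how the progenitor and the luminal state differ. Levels of Jun, Junb, Jund, Egr1 and Maff differed between them. Jund was 3.46-fold lower in Scahigh than in Scalow cells, Jun 1.63-fold lower and Maff 1.70-fold lower, while Egr1 was 3.05-fold higher and Junb 1.47-fold higher. The 3 FOS genes that could be tested and Ier3 were not called, with log2 fold changes of −0.06 (SE 0.09) for Fos, −0.27 (SE 0.15) for Fosl1, −0.14 (SE 0.20) for Fosl2 and −0.16 (SE 0.12) for Ier3.
Calls here need a Benjamini-Hochberg adjusted p below 0.01 over all tested genes and an absolute log2 fold change above 0.50, from limma on log2(scaled RPKM + 0.1), a scale that understates the change of low genes. The log2 fold change was −1.77 for Jund (SE 0.099, adjusted p = 1.7e-08), −0.76 for Maff (SE 0.074, adjusted p = 2.9e-06) and −0.71 for Jun (SE 0.14, adjusted p = 0.00092). It was 1.52 for Egr1 (SE 0.30, adjusted p = 0.00092) and 0.56 for Junb (SE 0.08, adjusted p = 7.2e-05). So 2 of 9 members were called higher and 3 lower, where 19.9% of all tested genes were higher and 20.4% lower (40.3% in all), and the median log2 fold change was −0.16 for the members and 0.00 for all genes. Of the 9 tested members the same 5 were called under every alternative that was run, and without libraries 3 and 12 the difference of Egr1 was 1.83 (adjusted p = 6.8e-06). Upper quartile scaling moved the calls over all tested genes from 2111 higher and 2161 lower to 2383 higher and 1875 lower.

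Vector-carrying uninduced cells differed from uninfected Scahigh cells, a comparison that shows the level from which the induced change sets out. Ier3 was 9.63-fold higher in ScahighNT cells, the largest difference of any member, Maff was 3.46-fold higher, Jund 1.88-fold and Junb 1.48-fold. None of the 9 tested members was called lower (Fosb, below the filter, is described further on). Egr1 had a mean of 5.04 ± 1.07 RPKM (SD, n = 3) against 10.6 ± 3.97 (SD, n = 3) and missed the p threshold.
The log2 fold change was 3.25 for Ier3 (SE 0.12, adjusted p = 3.5e-09), 1.77 for Maff (SE 0.074, adjusted p = 1e-08), 0.91 for Jund (SE 0.099, adjusted p = 1.9e-05) and 0.56 for Junb (SE 0.08, adjusted p = 0.00015). Fos passed the p threshold but not the fold threshold (0.37, SE 0.09, adjusted p = 0.0052). The values were 0.47 for Jun (SE 0.14, adjusted p = 0.018), 0.38 for Fosl2 (SE 0.20, adjusted p = 0.14), 0.32 for Fosl1 (SE 0.15, adjusted p = 0.087) and −1.01 for Egr1 (SE 0.30, adjusted p = 0.017). With 4 of 9 members called higher and 0 lower, the background was 10.4% of all tested genes higher and 11.1% lower (21.6% in all), and the members' median was 0.47 against 0.01 over all genes.
Part of this depends on the scaling and on single libraries. Upper quartile scaling moved the median of all genes from 0.01 to −0.11 and turned the split of all calls from 1104 higher and 1181 lower to 791 higher and 1607 lower, and under it Junb (0.44) was no longer called, nor was it with the trend with gene length removed (0.45). Egr1 was called lower without library 3 (−1.34, adjusted p = 0.0026) and without library 12 (−1.03, adjusted p = 0.0053), and Jun was called higher without library 1 (0.63, adjusted p = 0.0021).

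After induction of miR-34a for 24 h, several JUN and FOS genes were lower than in uninduced cells that carry the same vector. This comparison and the one before use the same ScahighNT libraries with opposite sign, so they are not independent. Jun fell 3.69-fold, Ier3 3.03-fold, Fosl2 2.64-fold, Jund 1.90-fold and Fosl1 1.58-fold, and none of the 9 tested members rose (Fosb, below the filter, is described further on). Fos, Junb, Egr1 and Maff were not called. Fos, whose 3′ UTR holds a seed site, was thus not called. A missed threshold does not show that these 4 genes stayed level.
The log2 fold change was −1.86 for Jun (SE 0.14, adjusted p = 3.5e-07), −1.58 for Ier3 (SE 0.12, adjusted p = 2.4e-07), −1.41 for Fosl2 (SE 0.20, adjusted p = 7.8e-05), −0.92 for Jund (SE 0.099, adjusted p = 6.5e-06) and −0.64 for Fosl1 (SE 0.15, adjusted p = 0.0023). It was 0.08 for Fos (SE 0.09), −0.09 for Junb (SE 0.08), 0.28 for Egr1 (SE 0.30) and −0.20 for Maff (SE 0.074, adjusted p = 0.032). Thus 0 of 9 members were called higher and 5 lower, where 17.5% of all tested genes were higher and 21.4% lower (39% in all), and the median was −0.64 for the members and −0.03 for all genes. None of the 5 genes that fell holds a seed site in its longest 3′ UTR, as against 23.4% of tested genes with an annotated 3′ UTR that hold one. Whether miR-34a acts on any member was not tested.
Fosl1 is the weak call among them. It was lost without library 7 (−0.55, adjusted p = 0.016), library 8 (−0.60, adjusted p = 0.011) or library 11 (−0.48, adjusted p = 0.014) and with a pseudocount of 1 (−0.46). The other 4 were called under every alternative that was run, with ranges of −1.91 to −1.58 for Jun, −1.72 to −1.43 for Ier3, −1.57 to −1.22 for Fosl2 and −0.95 to −0.77 for Jund. The split of calls over all tested genes depended on the scaling. It was 1858 higher and 2271 lower in the main fit, and 2233 higher and 1931 lower under upper quartile scaling.

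Set against uninfected Scahigh cells, the induced cells showed which members ended below that level and which stayed above it. This comparison shares its libraries with the ones before, so the values are given side by side and are not independent of them. Jun and Fosl2 ended 2.69-fold and 2.07-fold below the Scahigh level, with log2 fold changes of −1.39 (SE 0.14, adjusted p = 3.7e-06) and −1.04 (SE 0.20, adjusted p = 0.00071). Ier3 and Maff ended 3.18-fold and 3.01-fold above it, with 1.67 (SE 0.12, adjusted p = 1.2e-07) and 1.56 (SE 0.074, adjusted p = 4e-09). Jund had a mean of 11.4 ± 1.33 RPKM in induced and 11.5 ± 0.503 in Scahigh cells (SD, n = 3), a log2 difference of −0.02 (SE 0.099), after 21.6 ± 0.691 in ScahighNT cells.
Of 9 members, 2 were called higher and 2 lower, against 22.2% and 25.3% of all tested genes (47.5% in all), with a median of −0.02 for members and for all genes. Fos (0.45, SE 0.09, adjusted p = 0.00081) and Junb (0.47, SE 0.08, adjusted p = 0.00022) passed the p threshold and fell short of the fold threshold. Egr1 (−0.73, SE 0.30, adjusted p = 0.048) passed the fold threshold and missed the p threshold, and Fosl1 (−0.32, SE 0.15, adjusted p = 0.069) passed neither.
More members were called once the libraries that stand apart were left out. Without library 12, 7 were called, with Fos at 0.52, Junb at 0.59 and Egr1 at −1.02 added. Without library 3, Junb (0.50) and Egr1 (−1.02) were added, and Junb also with RPKM as deposited (0.51). Without both libraries, 8 were called, with Fos at 0.54 (adjusted p = 0.00063), Junb at 0.60 (adjusted p = 1.2e-05), Egr1 at −1.33 (adjusted p = 0.00014) and Fosl1 at −0.51 (adjusted p = 0.0082) added. Calls over all 10597 tested genes rose too, from 2348 higher and 2681 lower in the main fit. They were 2621 and 2817 without library 12, 2519 and 2794 without library 3, and 2765 and 3058 without both.

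**Figure D2:**
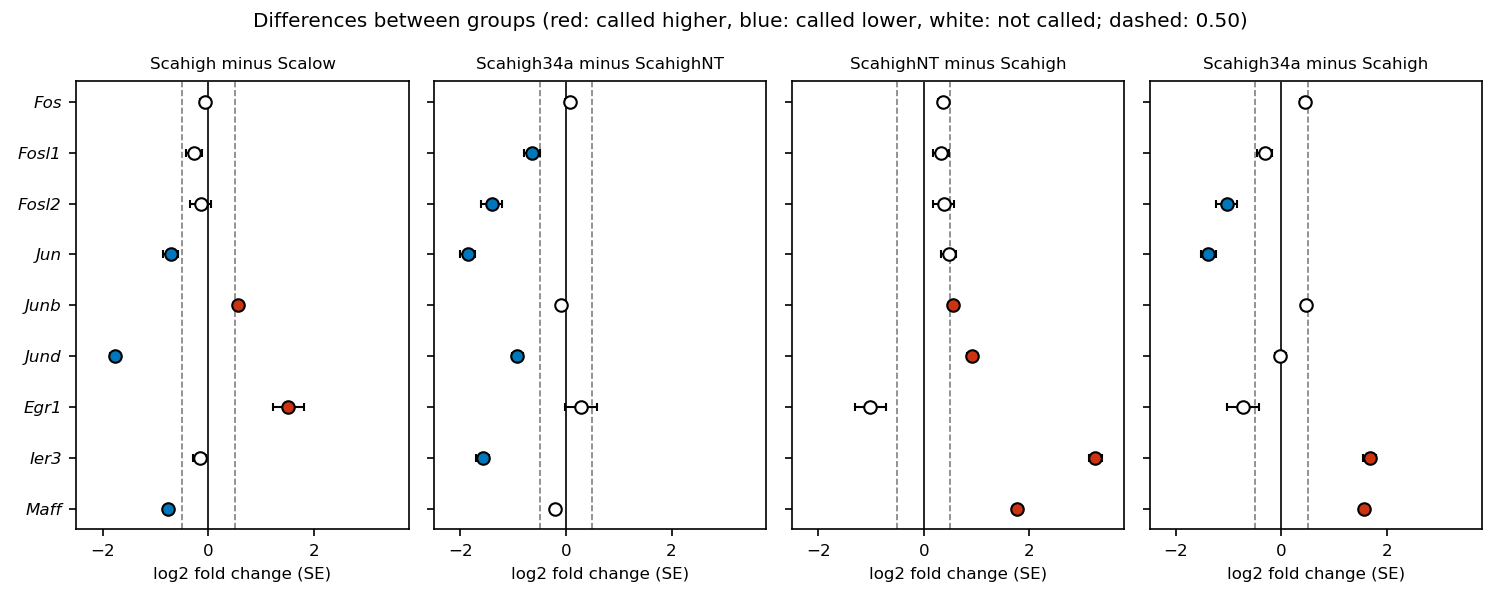
Log2 fold change (x axis, with SE) of the 9 tested genes in the 4 comparisons from limma on 12 libraries, coloured by call, with dashed lines at the fold threshold of 0.50. In Scahigh34a minus ScahighNT cells 5 genes are called lower and 0 higher, and in ScahighNT minus Scahigh cells 4 are called higher and 0 lower.

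Fosb, which was not part of these counts, took a course of its own as far as its few reads show. With no filter on low values, its log2 fold change was −0.60 in Scahigh against Scalow cells (adjusted p = 0.0044), −0.68 in ScahighNT against Scahigh cells (adjusted p = 0.0034) and 0.61 in Scahigh34a against ScahighNT cells (adjusted p = 0.0043), each past both thresholds. The last rise, from 0.111 ± 0.0145 to 0.222 ± 0.00597 RPKM (SD, n = 3), was in the gene whose long 3′ UTR form holds the second site shown above. Against Scahigh cells the induced cells gave −0.07 (adjusted p = 0.74).

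The make-up of each family shifted with the groups. Jund held 47.3 ± 2.0% of the summed JUN family RPKM in Scalow cells and 17.5 ± 0.237% in Scahigh cells (SD, n = 3), where Junb held 38.1 ± 1.31% and 71.2 ± 1.95%. The share of Junb was 68.4 ± 1.13% in ScahighNT and 82.1 ± 0.489% in Scahigh34a cells, and that of Jun was 10.2 ± 0.781% and 3.55 ± 0.896%. The libraries of each of these pairs of groups did not overlap in any of these shares.
The sum of the 3 JUN genes was 63.1 to 67.7 RPKM in Scahigh, 79.7 to 91.5 in Scalow, 99.6 to 103.4 in ScahighNT and 71.2 to 83.7 in Scahigh34a libraries. That of the 4 FOS genes was 14.3 to 21.5, 19.1 to 20.8, 21.2 to 23.9 and 10.7 to 14.2 RPKM in the same order. Fosl2 held 68.1 ± 4.92%, 67.6 ± 2.76% and 69.1 ± 3.34% of the FOS sum in the first 3 groups and 48.0 ± 6.45% in Scahigh34a cells, where Fos held 35.9 ± 6.27% against 18.2 ± 2.76% in ScahighNT cells. Shares of RNA say nothing of the proteins that pair.

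**Figure D3:**
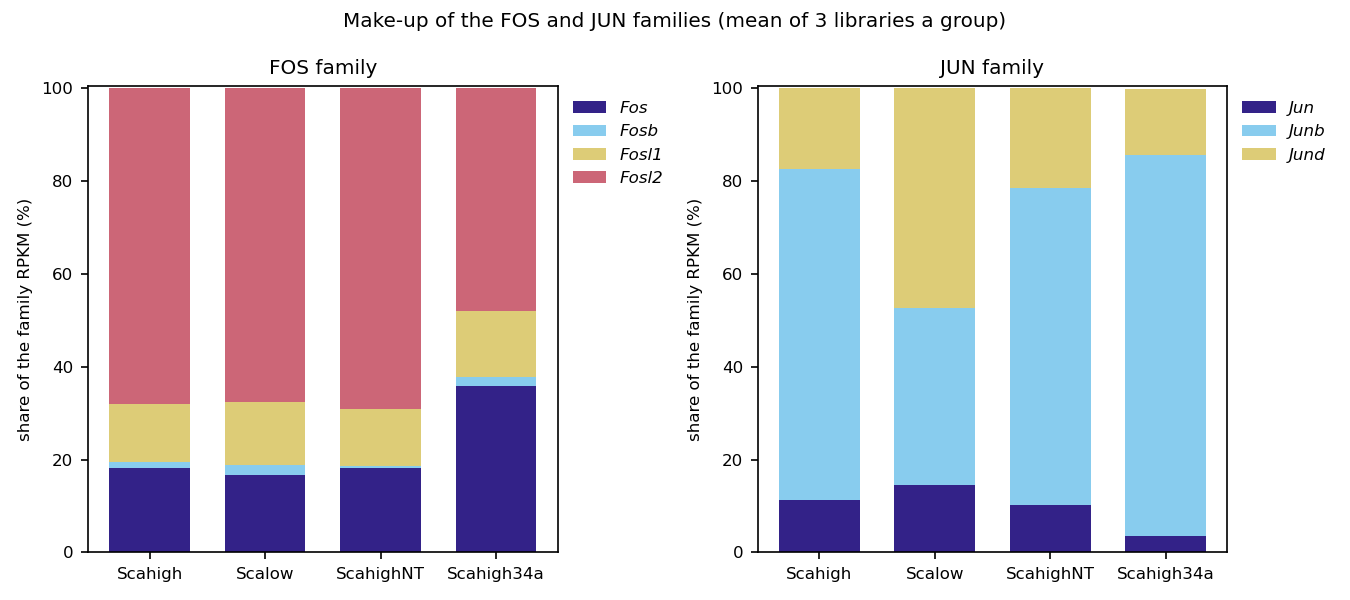
Share of each gene in the summed RPKM of the FOS family (left) and of the JUN family (right), in percent, as the mean of 3 libraries in each group. Jund makes up 47.3% of the JUN sum in Scalow cells, and Fosl2 falls to 48.0% of the FOS sum in Scahigh34a cells.

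The members can be read beside genes of the same class and the genes upstream and downstream of them. The counts below stand against the shares of all tested genes called higher and lower. These were 19.9% and 20.4% in Scahigh minus Scalow and 10.4% and 11.1% in ScahighNT minus Scahigh cells. They were 17.5% and 21.4% in Scahigh34a minus ScahighNT and 22.2% and 25.3% in Scahigh34a minus Scahigh cells. Of 14 other AP-1, ATF and MAF factors, 10 were tested. Atf3, a stress-induced partner of JUN proteins, was 2.04 ± 0.24 RPKM in Scahigh, 5.83 ± 0.511 in Scalow, 8.63 ± 1.11 in ScahighNT and 1.49 ± 0.295 in Scahigh34a cells (SD, n = 3). It was called lower in Scahigh than in Scalow cells (log2 fold change −1.47), higher in ScahighNT than in Scahigh cells (2.02) and lower in Scahigh34a than in ScahighNT cells (−2.47). The repressor Jdp2, which pairs with JUN proteins, rose after induction (0.85).
Other genes of this list differed between the sorts. Maf, the founding large MAF gene, was at 9.77 to 10.9 RPKM in Scahigh and 0.510 to 0.617 in Scalow libraries (log2 fold change 3.96), and Mafg, a small MAF gene like Maff, was at 6.64 to 8.35 against 34.7 to 38.9 (−2.36). Mafk, the third small MAF gene, was called higher in ScahighNT than in Scahigh cells (0.92) and ended at 15.7 ± 1.33 RPKM in Scahigh34a cells. Counted over the list, 4 were higher and 2 lower in Scahigh than in Scalow cells (median log2 fold change 0.31). The counts were 4 and 2 in ScahighNT than in Scahigh cells (median 0.25) and 2 and 2 in Scahigh34a than in ScahighNT cells (−0.24). They were 2 and 3 in Scahigh34a than in Scahigh cells (−0.27).

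Other immediate early genes, 34 of 40 tested, were mostly higher in uninduced vector-carrying cells and mostly lower after induction, among those called. In ScahighNT against Scahigh cells 16 were higher and 1 was lower, with a median log2 fold change of 0.50. In Scahigh34a against ScahighNT cells 3 were higher and 14 lower, with a median of −0.48. Both comparisons use the same ScahighNT libraries with opposite sign, so the rise and the fall are not separate findings. Ptgs2, the inducible cyclooxygenase, fell from 319.3 to 450.0 RPKM in the ScahighNT libraries to 40.3 to 47.3 in the Scahigh34a libraries (log2 fold change −3.17), below its 72.0 to 83.8 RPKM in Scahigh libraries.
Dusp1 and Dusp2 encode MAP kinase phosphatases. Dusp1 was higher in ScahighNT than in Scahigh cells (2.11), at 14.0 ± 1.75 against 3.15 ± 0.208 RPKM, as was the antiproliferative gene Btg2 (1.99). Dusp2 rose after induction (4.19), from 0.133 to 0.191 RPKM in the ScahighNT libraries to 4.55 to 5.11 in the Scahigh34a libraries. Between the sorts 6 of this list were higher in Scahigh cells and 16 lower, with Arc, known from neurons, at 8.95 ± 0.36 against 1.06 ± 0.226 RPKM and the zinc finger genes Klf6 and Klf2 lower in Scahigh cells (−1.73 and −3.33). Against Scahigh cells, induced cells had 10 higher and 8 lower.

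Upstream in the signalling route, all 20 kinases and receptors of the EGF receptor, RAS, ERK and JNK pathways were tested. In Scahigh against Scalow cells 4 were higher and 2 lower, where 19.9% and 20.4% of all tested genes were. The counts were 0 and 1 in ScahighNT against Scahigh cells (10.4% and 11.1% of all tested genes). They were 1 and 3 in Scahigh34a against ScahighNT cells (17.5% and 21.4%) and 0 and 1 in Scahigh34a against Scahigh cells (22.2% and 25.3%). Egfr, the EGF receptor, was higher in Scahigh than in Scalow cells (0.89) and fell after induction (−0.84), from 11.5 ± 0.435 to 6.40 ± 0.635 RPKM. RNA levels do not report the activity of these kinases. Of 6 tested genes of SRF and its cofactors, 4 were higher in Scahigh than in Scalow cells and 0 lower, among them Srf (0.70) at 10.3 ± 0.909 against 6.26 ± 0.24 RPKM. None of the 6 was called after induction, 1 was lower in ScahighNT and 3 were lower in Scahigh34a than in Scahigh cells.

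Downstream, 22 of 24 genes reported as AP-1 targets were tested. Krt5 and Krt14 are on this list and also among the basal markers described below. In ScahighNT against Scahigh cells 15 were higher and 0 lower (median log2 fold change 1.11). The smallest p values among them were those of the EGF receptor ligands Ereg and Areg, which did not have the largest rises. Ereg was at 11.4 ± 0.809 RPKM in Scahigh and 105.4 ± 15.8 in ScahighNT cells (3.19). In Scahigh34a against ScahighNT cells 12 were lower and 1 higher (median −0.73). Here too the 2 comparisons share the ScahighNT libraries and are not independent. The cytokine gene Il6 fell from 4.95 to 6.03 RPKM in the ScahighNT libraries to 0.116 to 0.208 in the Scahigh34a libraries (−4.33), and the gene that rose was the gelatinase Mmp9 (4.60). Between the sorts 9 were higher in Scahigh cells and 7 lower, with the cyclin gene Ccnd1 at 43.2 ± 3.85 against 102.1 ± 2.22 RPKM. Against Scahigh cells, induced cells had 7 higher and 7 lower. Many of these genes are also read by other factors, and whether AP-1 acted on them was not tested.

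**Figure D4:**
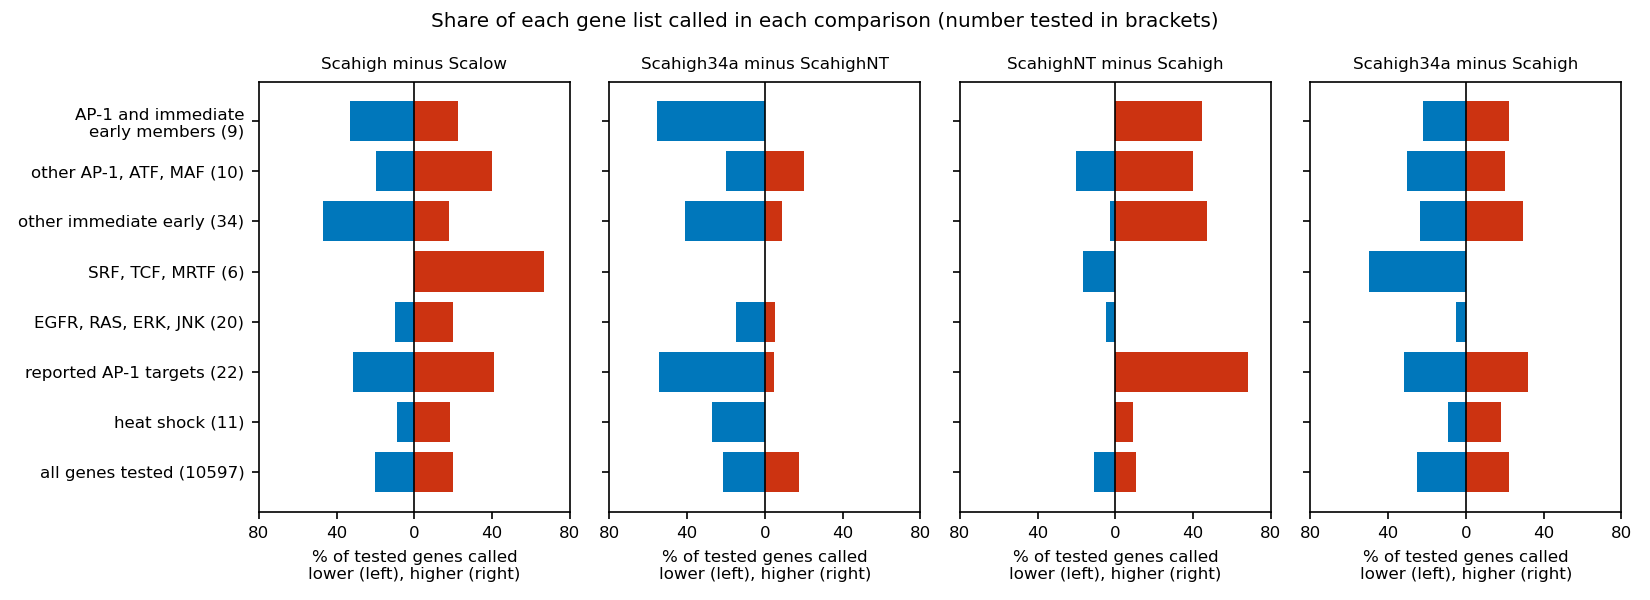
Percent of the tested genes of each list (number tested in brackets) called lower, drawn to the left in blue, or higher, drawn to the right in red, in the 4 comparisons, with all 10597 tested genes in the lowest bars. In ScahighNT minus Scahigh cells 15 of 22 reported AP-1 targets are higher, and in Scahigh34a minus ScahighNT cells 12 of 22 are lower.

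Heat shock genes mark handling stress, and dissociation and sorting can raise them together with immediate early genes. In each comparison at least 8 of the 11 tested were not called. Their summed level was 1355 to 1623 RPKM in Scahigh, 1826 to 1957 in Scalow, 2092 to 2320 in ScahighNT and 1503 to 1802 in Scahigh34a libraries, over 12 genes of which 11 were tested. Such a sum mostly follows the most abundant genes. By count, 2 were higher and 1 lower in Scahigh than in Scalow cells (19.9% and 20.4% of all tested genes). The counts were 1 and 0 in ScahighNT than in Scahigh cells (10.4% and 11.1%). They were 0 and 3 in Scahigh34a than in ScahighNT cells (17.5% and 21.4%). The small heat shock gene Hspb1 was at 73.7 ± 6.13 RPKM in Scahigh, 489.0 ± 31.3 in ScahighNT and 302.9 ± 29.6 in Scahigh34a cells. Ier3 and Maff share this order of the 3 groups. In Scalow cells Hspb1 was at 72.0 ± 7.55 RPKM. The inducible Hspa1b was at 12 ± 1.3 in Scahigh, 12.3 ± 0.347 in ScahighNT and 4.51 ± 0.127 in Scahigh34a cells. The part of handling stress in the members' levels was not tested.
Cell type markers set the sorted Scahigh and Scalow cells apart as labelled, while in Scahigh34a cells the summed basal markers were closer to the Scalow level. The summed level of 6 basal markers was 1310 to 1620 RPKM in Scahigh and 347 to 421 in Scalow libraries, and it was 1456 to 1607 in ScahighNT and 456 to 524 in Scahigh34a libraries. That of 6 luminal markers was 13.2 to 15.4 in Scahigh and 766 to 817 in Scalow libraries and at most 6.47 in vector-carrying ones. Most of the basal sum in Scahigh cells was Krt14 (870.8 RPKM) and Krt5 (501.6 RPKM). Of the 6 basal markers, 5 were called lower in Scahigh34a than in Scahigh cells and 1 was not called. Ly6a stayed nearer the Scahigh level, at 8.05 ± 1.48 RPKM in Scahigh34a, 11.4 ± 1.82 in Scahigh and 1.32 ± 0.491 in Scalow cells (SD, n = 3). Of 6 markers each of immune cells, fibroblasts and endothelial cells, 1, 1 and 0 passed the filter, with summed levels of at most 1.69, 2.49 and 0.126 RPKM in any library. Ptprc, which marks all leukocytes, was at most 0.0184 RPKM, and Tyrobp was listed at 0 in all 12 libraries. The part of the basal markers' course in that of the members was not tested.

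Each member's pattern over the 12 libraries had close companions among other genes. By Pearson's correlation of log2 values, the tested gene most like Ier3 was Ramp3 (r = 0.996), that most like Jund was Tubb2a (0.993), and those most like Junb and Maff were Anxa8 and Fdps (both 0.991). For Jun it was Brd2 (0.988), for Egr1 Pcnx (0.985), for Fosl2 Noa1 (0.974), for Fosb Pygo2 (0.958), for Fos Sec22b (0.955) and for Fosl1 Skiv2l2 (0.926). Each is the highest value found among the tested genes after leaving out the members and genes that are predicted or bear no symbol. The libraries share 4 group means and their depth, and the values describe the pattern only.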

How the data were processed

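RNA was measured in 12 libraries of CommaDβ cells in 4 groups of 3, grouped by the titles of the samples. The authors deposited a table with 1 RPKM value per gene and library. The submitters' processing notes list TopHat2 2.0.6, the mm9 build and DESeq2, while the counting tool, the annotation and the counted unit (read or pair) were not given in the sources used here. Further columns hold the authors' own fold changes, p-values, means and marks of selected genes for their comparisons, which were not used. Each of the 12 value columns is headed by a group name with a running number, by which its library is called here, and all were used.
RPKM removes depth and length but not differences in composition, so libraries were rescaled by an unweighted trimmed mean of M values (trimming 30% of M and 5% of A at either end). The 10597 genes that reached 1 RPKM in 3 or more libraries were tested with limma 3.58.1 in R 4.3.3 on log2(scaled RPKM + 0.1), with 4 group means, a trend of the spread on expression, 8 residual and 3.29 prior degrees of freedom, and Benjamini-Hochberg adjustment over all tested genes. The thresholds are those of the study (0.01 for the adjusted p and 0.50 for the absolute log2 fold change). The fit was also run on simulated reads, drawn with the same spread for all genes and with no library standing apart. That run therefore does not show how the fit behaves with libraries 3 and 12. Whole reads were recovered within 0.1 read for 19961 genes, for depth and for an alternative test, and 182 genes that bear no symbol, with up to 1.59% of a library's RPKM, stayed in the fit.
The members and the gene lists were chosen with earlier results of these data known. All members are described, and from each other list at most the 2 called genes with the smallest p in each direction and comparison are named, together with genes that check the labels and, for each member, the gene with the most similar pattern. Python 3.11.15, numpy 2.4.6, pandas 2.3.3 and matplotlib 3.10.9 were used for the other steps. Alternatives covered the scaling, filter, pseudocount, thresholds, libraries in the fit, each library left out, limma-voom on recovered reads, removal of the trend with gene length, and the UTRs searched. Sequences come from RefSeq and GENCODE on GRCm38, another build than that of the authors, and no coordinates of the authors' build are given.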

Additional observations from a re-analysis of the deposited data

How the results depend on the processing

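Of 828 member values under alternatives, 786 kept direction and side of the threshold, 6 lost a call, 21 gained one and 15 changed sign, none of the last called. The cause of these changes was not tested. With libraries left out in turn, members called stayed at 5 (Scahigh minus Scalow), and ranged 4 to 5 (Scahigh34a minus ScahighNT), 4 to 5 (ScahighNT minus Scahigh) and 4 to 7 (Scahigh34a minus Scahigh, 7 without library 12, and 8 without libraries 3 and 12). All genes called ranged 3983 to 4683, 3921 to 4433, 1991 to 2720 and 4753 to 5438 in the same order, and listed genes 52 to 62, 40 to 47, 36 to 42 and 39 to 46. At an adjusted p below 0.05 with no fold threshold, members called were 7 in both ScahighNT minus Scahigh and Scahigh34a minus Scahigh. All genes called were then 7175 (Scahigh minus Scalow), 6881 (Scahigh34a minus ScahighNT), 5367 (ScahighNT minus Scahigh) and 7712 (Scahigh34a minus Scahigh), and listed genes called in the last 3 were 70, 68 and 78. At 1 RPKM in every library, 1274 genes were called in ScahighNT minus Scahigh cells, where 8449 were tested. With the shortest 3′ UTRs, 1 member held a seed site.
The sign changes were in Fos (Scahigh minus Scalow: 0.02 under upper quartile scaling and as deposited, 0.05 with the length trend removed), Fosl2 (Scahigh minus Scalow: −0.31 to 0.09 with libraries left out in turn, above 0 without library 3 only, and 0.09 without libraries 3 and 12), Junb (Scahigh34a minus ScahighNT: 0.00 under upper quartile scaling, −0.10 to 0.05 with libraries left out in turn, above 0 without library 12 only, and 0.05 without both) and Jund (Scahigh34a minus Scahigh: 0.02 as deposited, 0.13 without both, and −0.06 to 0.12 with libraries left out in turn, the sign changing without library 3, 7, 8, 9 or 12). No paired analysis was possible because the columns carry a running number and not the replicate number. Depth limits Fosb.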
